A study of Arabidopsis thaliana with 12 samples.

Results

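The transcripts named for the mitochondrial genome were followed in polysomal and non-polysomal RNA of *Arabidopsis* seedlings. On the Affymetrix ATH1 array, a probe set, the group of short oligonucleotides that reports on a transcript, was included when its deposited name was not a nuclear locus and began, in any case, with nad, cox, cob, ccb, ccm, atp1, atp6, atp8, atp9, matR, mttB or orf. This gave 75 members of the 22746 probe sets tested. Of these, 15 carry gene names (8 for nad genes, 2 for cox genes, 4 for ccb genes and 1 for matR) and 60 carry orf names, which denote open reading frames that are mostly described as hypothetical proteins. The prefixes cob, ccm, atp1, atp6, atp8, atp9 and mttB matched 0 probe sets. The TAIR10.1 gene table of RefSeq placed 16 members on the mitochondrial genome, namely the 15 gene names and orfX, which is mttB in that table. The other 59 orf names were not matched, so their place on the mitochondrial genome rests on the name alone. The names ORF31 and orf77.1 are also used for reading frames of the plastid genome, and results that turn on them are given with and without both.

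Samples were the aerial parts of 11-day-old seedlings of the Columbia ecotype, either wild-type (WT) or eif3k mutants, which carry a T-DNA (line GK-274H04-015098) in intron 6 of At4g33250. This gene encodes eIF3k, a subunit outside the core of the cytosolic initiation factor eIF3, and 1 insertion line stands for the mutant. Lysates were run on sucrose gradients, where the 6 uppermost fractions made up the non-polysomal pool (NP) and the 6 lowest the polysomal pool (PL), and each pool had its own array, with 3 replicates for each genotype and fraction and 12 arrays in all. The labels give 16 h of light a day whereas the study's methods describe continuous light.

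Plant mitochondria keep a small genome that encodes some subunits of the respiratory chain, parts of the machinery that attaches heme to cytochrome c, a splicing factor and several ribosomal proteins, while most subunits of the same complexes are encoded in the nucleus. The mitochondrial mRNAs are translated inside the organelle by its own ribosomes, not by the cytosolic ribosomes on which eIF3 acts. Poly(A) tails mark organelle RNAs for degradation, whereas they stabilize cytosolic mRNAs, and arrays labelled from poly(A) tails, as the study points out, see polyadenylated RNA best. What share of the mitochondrial RNA these signals represent was not tested.

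The deposited values are log2 signals with a lowest value of 2.33, called the floor here, which many probe sets show on many arrays. The translation state (TL) is log2 PL minus log2 NP of a replicate. Because the authors normalized PL and NP arrays to each other, a TL of 0 is the middle of the array and not an equal split of an RNA between fractions. The disrupted gene At4g33250 had NP signals of 9.01 to 9.45 in WT and 7.30 to 8.05 in eif3k, without overlap, whereas its PL signals of 7.28 to 8.89 and 7.06 to 7.63 overlapped through WT replicate 3. The leaf marker RBCS1A lay between 14.43 and 14.90 on all arrays, and of 5 root markers 4 lay at or near the floor. Other leaf markers varied more. RCA lay between 10.94 and 14.08, lowest in PL of WT replicate 3, and LHCB3 between 11.50 and 14.42, lowest in PL of eif3k replicate 3. By the labels, the arrays of replicate 3 were made on a later day than those of replicates 1 and 2. The PL array of WT replicate 3 stood apart, with the highest median signal (3.49, against 3.25 to 3.38 on the other 11 arrays) and the lowest SD over probe sets (1.94, against 2.15 to 2.29), so results that rest on this sample are also given without it.

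Few of the members gave a signal in these seedlings, and outside WT replicate 3 they did so mainly in the NP pool. The median member had a mean signal of 2.44 over the 12 arrays, against 3.36 for all probe sets. On all 12 arrays 19 of 75 members (25.3%) stayed within 0.1 of the floor, against 16.1% of all probe sets. At least 1 log2 unit above the floor on any array were 30 members. By array, 17, 13 and 9 members reached that height in the WT NP samples and 14, 12 and 15 in the eif3k NP samples, whereas 2 and 2 did so in the first and second WT PL samples and 2, 2 and 3 in the eif3k PL samples. The PL sample of WT replicate 3 was the exception, with 21 members, and 10 of these reached that height on no other array. Of all probe sets, 49.3% to 53.4% reached it, whatever the array. ORF31, with signals of 6.22 or higher, was among the members counted on every array, and orf77.1, at most 3.18, on none. Each count by array is thus 1 lower without these names.

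**Figure D1:**
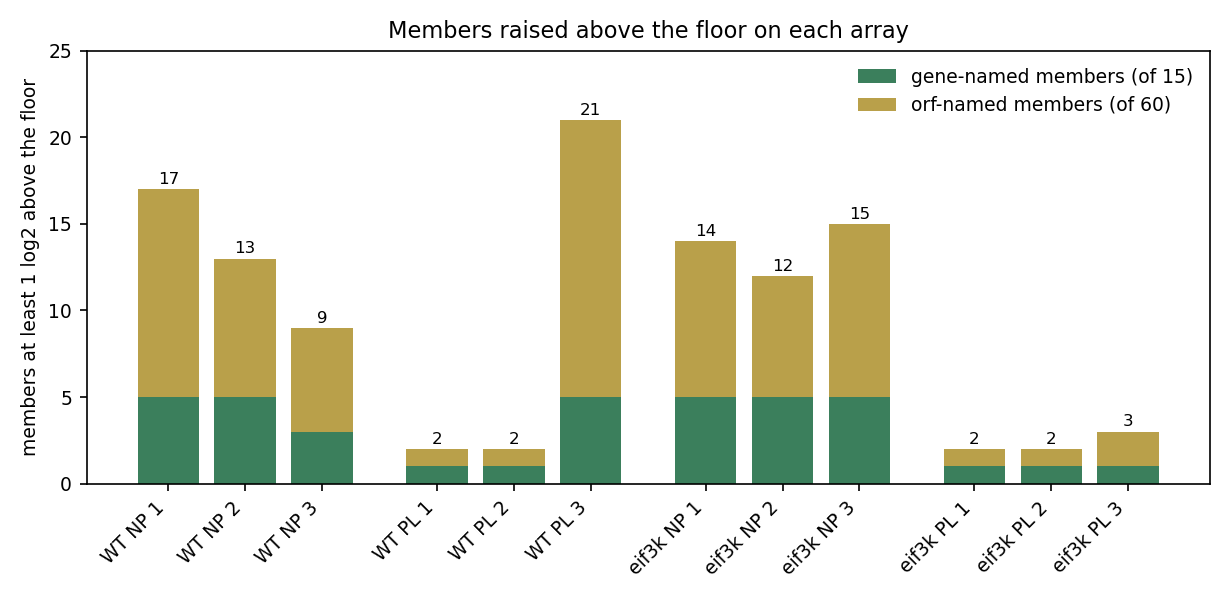
Number of the 75 members whose log2 signal lay at least 1 above the floor of 2.33, for each of the 12 arrays; bars start at 0 and are split into gene-named and orf-named members. NP arrays hold 9 to 17 such members and PL arrays 2 or 3, except the PL array of WT replicate 3, which holds 21. ORF31, a name also used for a plastid reading frame, is 1 of them on every array.

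**Figure D2:**
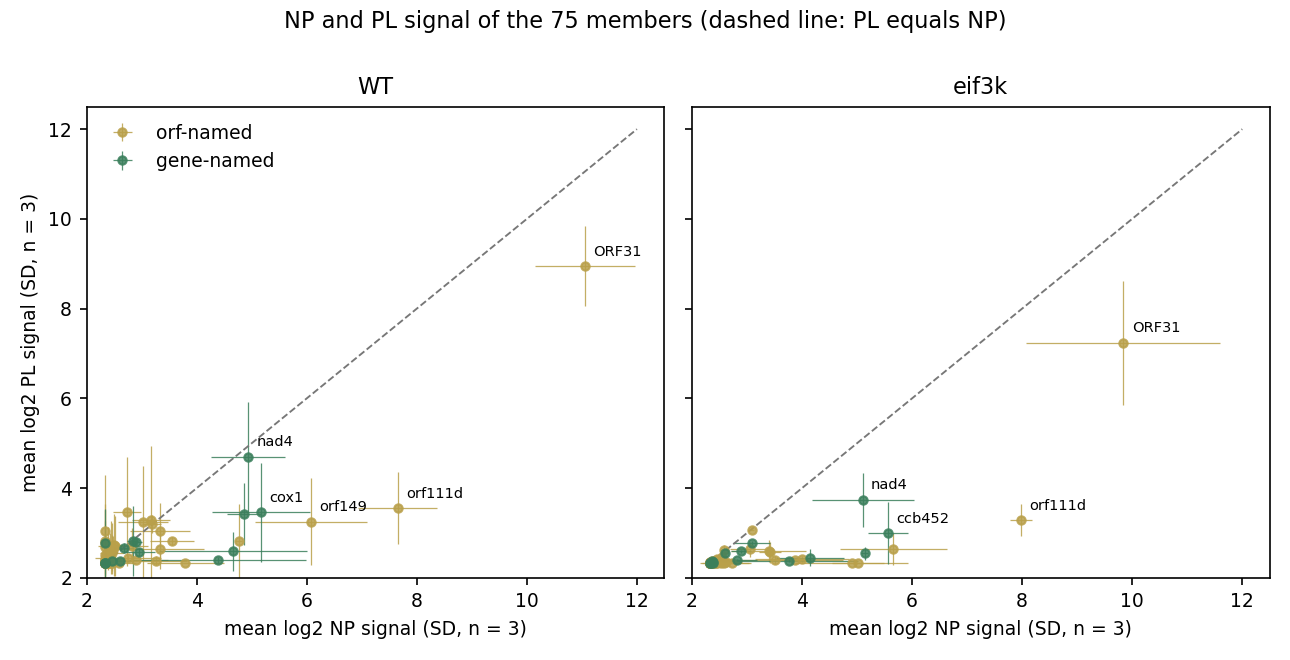
Mean log2 NP signal against mean log2 PL signal of each member in WT and eif3k, with error bars for the SD of 3 replicates; the dashed line marks equal signals. Of the 16 members with a mean signal of at least 3, 13 lie below the line in WT and 16 in eif3k. The 3 above it in WT are orf262, orf111b and orfX. The PL error bars of nad4, cox1, orf149 and orf111d are longer in WT, where replicate 3 differed from the others.

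All 6 NP signals exceeded all 6 PL signals for 9 of 75 members, a share of 12%, against 6.11% of all probe sets, and the reverse held for 0 members and for 3.77% of all probe sets. The 9 members were nad3, ccb382, ccb452, orf101b, orf111d, orf149, orf240a, orf113 and orf294, the last 2 of which were named after their values were seen. Within WT the groups did not overlap in this direction for 11 members (background 12.0%), and within eif3k for 20 members (background 12.9%). Without WT replicate 3 the count over both genotypes was 16 members (background 9.60%), and 17 with replicate 3 of both genotypes left out (background 14.2%). The count was also 9 among the 73 members other than ORF31 and orf77.1.

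The test of TL against 0 with limma called 1 member lower in WT, orf111d, against 2.82% of all probe sets, and 4 members lower in eif3k, orf111d, orf101b, ccb452 and orf114, against 2.55% of all probe sets. A call needed an adjusted p under 0.05 over all probe sets and a TL of at least 1 in size. The test used a spread shared by both genotypes. Called higher were 0 members in either genotype. Of all probe sets, 4.84% in WT and 4.73% in eif3k were called in either direction, the lower calls included. The share called higher over the array was thus small too. At an unadjusted p under 0.05, in either direction, there were 7 members in WT (9.33%, against 20.8% of all probe sets) and 11 in eif3k (14.7%, against 22.3%), a lower share than over the array. These counts changed with single samples. Without WT replicate 3, 8 members were called lower in WT (background 3.06%) and 9 in eif3k (background 3.66%). Of these, 7 and 8 were other than ORF31 and orf77.1. Leaving out any other single sample left 0 members in WT and 0 or 1 in eif3k. In those runs the calls were also fewer over the array, with 0.132% to 2.6% of all probe sets in WT and 0.18% to 1.94% in eif3k, in either direction. Called in both genotypes without WT replicate 3 were cox1, nad3, ccb452, orf101b, orf111d, orf149 and ORF31, while orf262 was called in WT, and orf114 and nad4 in eif3k. Whether the genotypes differ was tested separately.

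Among the subunits of complex I, the NADH dehydrogenase at which electrons enter the chain, nad3 and nad4 were the brightest. For nad3, WT NP signals were 5.29, 5.57 and 3.12 and WT PL signals 2.34, 2.34 and 3.10 in replicates 1 to 3. In eif3k the NP signals were 4.85, 3.84 and 3.73 and the PL signals 2.66, 2.34 and 2.34. All NP signals of nad3 thus exceeded its PL signals, but in WT replicate 3 by 0.02. The mean TL was -2.07 ± 1.78 (SD, n = 3) in WT and -1.69 ± 0.43 in eif3k, with adjusted p-values of 0.199 and 0.261 by limma. Its probe set may hybridize to more than 1 transcript.

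For nad4, NP signals were 5.14, 5.48 and 4.19 (WT) and 5.94, 5.26 and 4.11 (eif3k). Its PL signals were 4.10, 3.89 and 6.11 (WT) and 4.10, 4.08 and 3.05 (eif3k). Hence nad4 was higher in NP in 5 of 6 samples and higher in PL, by 1.92, in WT replicate 3. Mean TL was -0.24 ± 1.89 in WT and -1.36 ± 0.42 in eif3k, and neither passed the test (adjusted p = 0.952 and 0.408). Without WT replicate 3, the unchanged eif3k value was called with an adjusted p of 0.0449, as the test shares 1 spread between the genotypes.

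The remaining nad probe sets gave low signals. Signals of nad9 ranged from 2.72 to 2.91 in WT NP and from 2.41 to 3.03 in eif3k NP, and its PL signals from 2.33 to 2.41 except in WT replicate 3, where it reached 3.73. The gene nad5 has 2 probe sets for parts that are joined by trans-splicing. That for the first part, nad5.1, never exceeded 2.34, and that for the second, nad5.2, lay between 2.47 and 3.16. Signals of nad7 lay within 0.02 of 2.57 on 7 of 12 arrays and were at most 2.89. The probe set nad4L showed 2.37, within 0.02, on 10 of 12 arrays, and nad6 stayed between 2.33 and 2.42. For nad5.1, nad6, nad4L and nad7 a TL near 0 thus says only that the signal hardly left its lowest value in either fraction.

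Of the complex IV subunits, which form cytochrome c oxidase, cox1 gave a signal and cox2 was dim. For cox1, NP signals were 5.67, 5.69 and 4.14 (WT) and 5.17, 5.07 and 5.18 (eif3k). The PL signals were 2.87, 2.78 and 4.73 (WT) and 2.64, 2.63 and 2.38 (eif3k). NP and PL groups did not overlap within eif3k, while in WT the third PL signal exceeded the third NP signal. Mean TL was -1.71 ± 1.99 in WT and -2.59 ± 0.19 in eif3k, with adjusted p-values of 0.312 and 0.140. Without WT replicate 3 the WT value was -2.85 with an adjusted p of 0.0128, and the eif3k value was called with an adjusted p of 0.00748. Signals of cox2 stayed between 2.72 and 3.47 on all arrays.

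The ccb genes encode components of cytochrome c maturation, and the gene table names them ccmFC (ccb452), ccmFN1 (ccb382), ccmFN2 (ccb203) and ccmB (ccb206). NP signals of ccb452 were 5.21, 4.78 and 4.61 in WT and 5.59, 5.19 and 5.91 in eif3k. Its PL signals were 3.23, 2.86 and 4.18 (WT) and 2.49, 2.72 and 3.79 (eif3k). All NP signals lay above all PL signals, and the mean TL was -2.56 ± 0.50 in eif3k (adjusted p = 0.0360) and -1.44 ± 0.88 in WT (adjusted p = 0.122). The probe set of ccb452 may hybridize to more than 1 transcript, so a copy elsewhere in the genome could contribute to its values.

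For ccb382 the replicates diverged in both genotypes, with NP signals of 5.36, 5.26 and 2.53 in WT and 5.04, 3.73 and 2.54 in eif3k. PL signals lay between 2.33 and 2.44 throughout. Replicate 3, the sample of the later hybridization, thus gave a TL of -0.11 in WT and -0.12 in eif3k, while the other 4 samples gave -1.37 to -3.03. Signals of ccb203 were at most 2.36 on 11 arrays and 3.65 in PL of WT replicate 3, and ccb206 stayed between 2.36 and 2.83. The maturase gene matR, which encodes a protein for intron splicing, stayed at 2.33 on all 12 arrays.

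**Figure D3:**
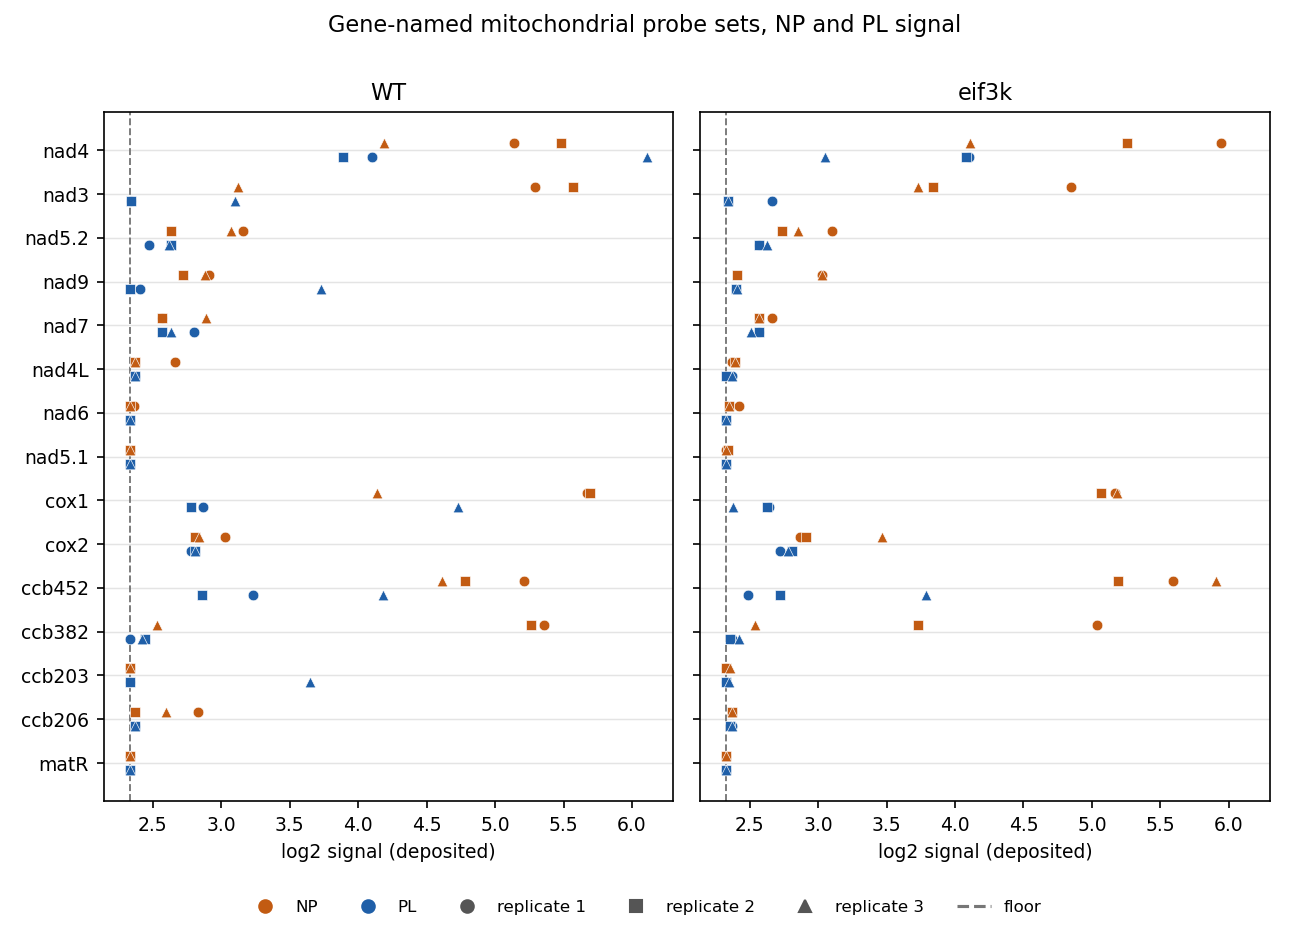
Deposited log2 NP and PL signals of the 15 gene-named members in each replicate of WT and eif3k; symbols mark replicates and the dashed line the floor of 2.33. NP signals of nad3, ccb452 and ccb382 lie above all of their PL signals, and in WT replicate 3 the PL signals of nad4 and cox1 lie above their NP signals.

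Of the orf names, 16 of 60 stayed within 0.1 of the floor on all arrays, against 3 of 15 gene-named members (nad5.1, nad6 and matR). The brightest was ORF31, whose signals were far from the floor. Its NP signals were 11.87, 11.24 and 10.07 (WT) and 11.76, 9.47 and 8.29 (eif3k). The PL signals were 9.06, 8.00 and 9.79 (WT) and 8.82, 6.67 and 6.22 (eif3k). NP exceeded PL in 6 of 6 samples, but the groups overlapped, and the mean TL of -2.11 ± 1.60 in WT and -2.60 ± 0.47 in eif3k had adjusted p-values of 0.158 and 0.0942.

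The widest gap between the lowest NP and the highest PL signal, among the 75 members, was that of orf111d, which has no assigned function in the files. Its NP signals were 7.85, 8.25 and 6.86 (WT) and 8.10, 8.10 and 7.75 (eif3k). Its PL signals were 3.19, 3.00 and 4.47 (WT) and 3.13, 3.03 and 3.70 (eif3k). The NP signals were thus above the PL signals in both genotypes, WT replicate 3 included. Mean TL was -4.10 ± 1.51 in WT (adjusted p = 0.0349) and -4.70 ± 0.56 in eif3k (adjusted p = 0.0277).

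For orf149, NP signals were 7.00, 6.24 and 4.98 (WT) and 6.78, 5.06 and 5.13 (eif3k). Its PL signals were 3.04, 2.40 and 4.31 (WT) and 3.04, 2.33 and 2.56 (eif3k). The groups did not overlap, but the mean TL of -2.82 ± 1.87 in WT and -3.01 ± 0.63 in eif3k did not pass the test, with adjusted p-values of 0.121 and 0.0990.

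A PL signal at the floor was seen for orf101b and orf240a. NP signals of orf101b were 4.69, 4.81 and 4.79 in WT and 4.74, 4.75 and 5.57 in eif3k, and its PL signals were 2.33 or 2.34 except in WT replicate 3, where the value was 3.78. Mean TL of orf101b was -1.95 ± 0.82 in WT (adjusted p = 0.0544) and -2.69 ± 0.47 in eif3k (adjusted p = 0.0287). NP signals of orf240a were 4.02, 4.35 and 3.01 in WT and 4.26, 4.36 and 6.09 in eif3k, with PL at 2.33 on all 6 arrays. For orf240a the mean TL was -1.46 ± 0.70 in WT and -2.57 ± 1.03 in eif3k, and the adjusted p-values were 0.183 and 0.0526. Where PL lay at the floor, the TL gives only a bound, and whether the difference extends further was not measured.

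Of the remaining named reading frames 5 were dim, namely orf262, orf111b, orf135b, orf107c and orfX. For orf262, orf111b and orf135b, NP exceeded PL in WT replicates 1 and 2, and PL exceeded NP in WT replicate 3, with PL signals there of 5.19, 4.70 and 3.76. Signals of orf107c were 3.61, 3.13 and 3.92 in WT NP, 2.87, 2.73 and 2.89 in WT PL, 4.16, 3.14 and 2.88 in eif3k NP and 2.65, 2.33 and 2.81 in eif3k PL, so that NP exceeded PL in 6 of 6 samples by 0.07 to 1.51. The probe set orfX, for the protein translocation gene mttB, showed 3.07, within 0.02, on 9 of 12 arrays and at most 3.43. Such a repeated value above the floor, on at least 6 arrays, was found for 4 of 75 members and for 8.28% of all probe sets.

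The members with the highest mean TL over the 6 samples owed it to the PL array of WT replicate 3. On this array orf145c had a signal of 4.48, orf107e of 3.77, orf102 of 3.62 and orf107h of 4.83, whereas the first 3 of these were at most 2.37 on the other 11 arrays. Over all members the PL signal of WT replicate 3 was the highest of the 6 PL signals for 41 of 75 (54.7%), against 24.5% of all probe sets. By group this was 35 of 60 orf names and 4 of 10 nad and cox probe sets. In WT replicate 3 the TL was above 0 for 32 members and below 0 for 23, while it was above 0 for 5 and 4 and below 0 for 30 and 33 in WT replicates 1 and 2.

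**Figure D4:**
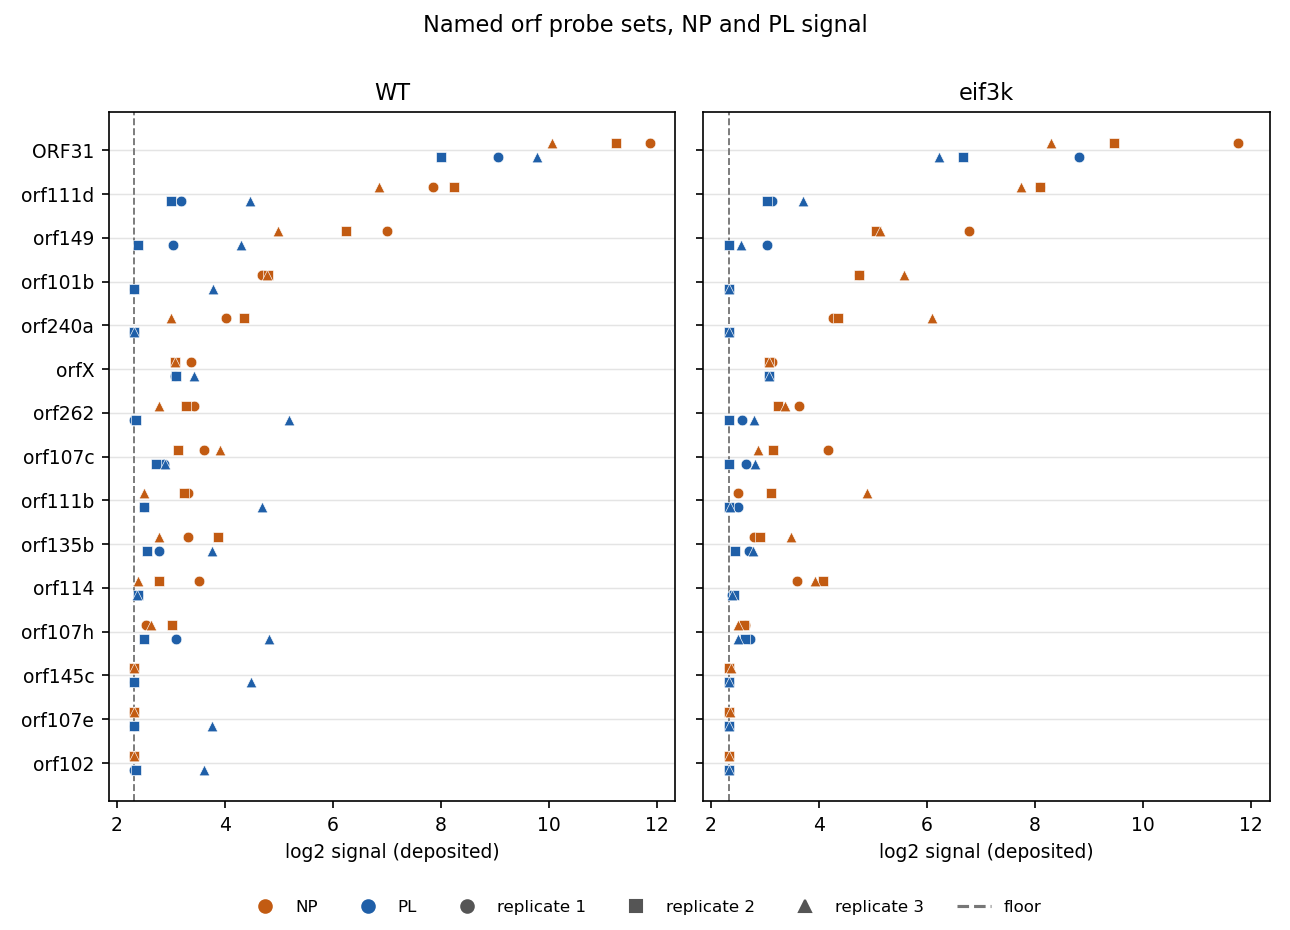
Deposited log2 NP and PL signals of the 15 named orf members in each replicate of WT and eif3k, as in the plot of the gene-named members. The 5 brightest frames have NP above PL in every sample, and orf145c, orf107e and orf102 leave the floor in the PL array of WT replicate 3.

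The 10 nad and cox probe sets were set beside the 60 orf names. The median of the mean TL was -0.10 in WT and -0.31 in eif3k for nad and cox, and 0.00 and -0.01 for the orf names, against 0.00 and 0.00 over all probe sets. Without replicate 3 of the genotype, the nad and cox median was -0.24 in WT and -0.22 in eif3k, so the gap between genotypes rested on that replicate. By sample, the nad and cox median was -0.40, 0.00 and 0.00 in WT and -0.34, -0.08 and -0.42 in eif3k, and that of the orf names was 0.00 in all 6 samples. A mean TL of -1 or lower was found for 2 of 10 nad and cox probe sets in WT and 3 in eif3k, and for 5 and 8 of 60 orf names. Mean TL was below 0 for 9 and 10 of 10 nad and cox probe sets and for 23 and 32 of 60 orf names, and it was 0 for 12 and 24 of the orf names, most of which did not leave the floor. The medians of the orf names thus describe probe sets at or near the floor, and no test was made between the groups. Several nad signs also rest on signals that hardly left their lowest value. The mean TL was -0.01 in WT and -0.04 in eif3k for nad6, and -0.01 and -0.05 for nad7. No share over all probe sets is set beside these counts of signs, so they are not read as a trait of the nad and cox genes.

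Nucleus-encoded subunits of the same complexes were bright, and their TL lay above 0 in 5 of 6 samples by the median. Of 49 loci of complexes I to V and cytochrome c, 45 were found. Their median signal over the 12 arrays was 7.74, 0 were at the floor, and the median of the mean TL was 0.28 in WT and 0.43 in eif3k. By sample their median TL was 0.43, 0.48 and -0.29 in WT and 0.43, 0.57 and 0.26 in eif3k. All NP signals exceeded all PL signals for 2 of 45 and the reverse held for 2. The 41 plastid probe sets of photosystem, cytochrome, NDH and ATP synthase genes, which are also translated on organelle ribosomes, had a median signal of 7.23 and a median of the mean TL of -1.18 in WT and -1.28 in eif3k. Their sample medians were -1.36, -1.13 and -0.26 in WT and -1.72, -1.35 and -0.89 in eif3k. WT replicate 3 was the sample with the median nearest 0 in the plastid list and with the lowest median in the nuclear list.

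**Figure D5:**
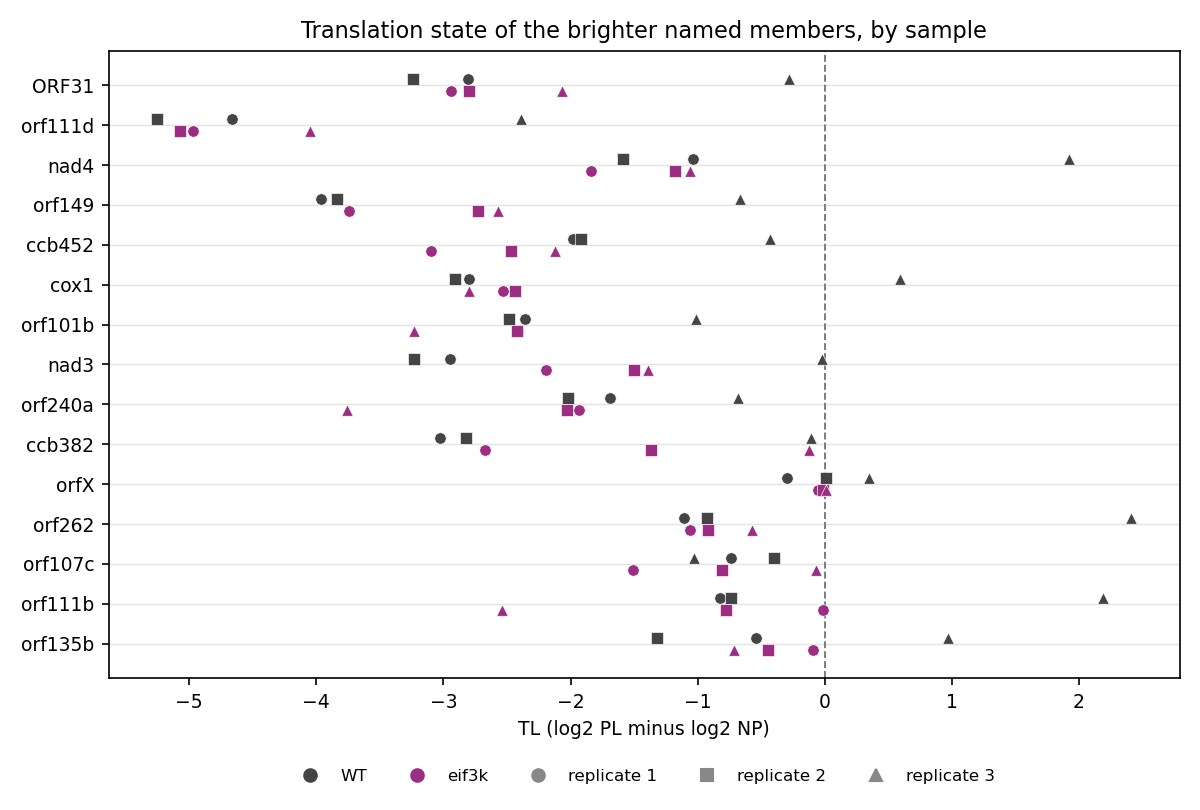
TL, log2 PL minus log2 NP, of the named members with a mean signal of at least 3, with a point for each replicate of WT and eif3k. WT replicate 3 lies to the right of the other WT samples for all of them but orf107c.

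The genotypes were compared in TL, PL and NP separately, the question being whether disruption of the gene for eIF3k, which acts in the cytosol, was accompanied by a shift of these organelle RNAs. With limma 0 of 75 members were called in TL, 0 in PL and 0 in NP, as for all probe sets (0%, 0% and 0%). The smallest adjusted p of a member was 0.823 for TL, 0.817 for PL and 0.876 for NP. At an unadjusted p under 0.05 were 1 member in TL (1.33%, against 2.69% of all probe sets), 0 in PL (against 1.92%) and 2 in NP (2.67%, against 3.17%). A fit over the 12 arrays, which tests genotype by fraction without pairing PL and NP of a sample, also called 0 members. In that fit 1 member had an unadjusted p under 0.05 (1.33%, against 1.88% of all probe sets). As these are bulk samples, fewer cells or mitochondria and less RNA in each cannot be told apart.

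The member with the lowest unadjusted p in TL was orf114. Its NP signals were 3.52, 2.78 and 2.39 (WT) and 3.60, 4.08 and 3.93 (eif3k), and its PL signals lay between 2.38 and 2.42 on all 6 PL arrays. The NP signals of eif3k lay above those of WT, and the TL difference, eif3k minus WT, was -0.96 ± 0.33 (SE) with an unadjusted p of 0.0385 and an adjusted p of 0.823. With PL at its lowest value, this TL difference repeats the NP difference of 0.97 ± 0.34 (adjusted p = 0.876). Its probe set may hybridize to more than 1 transcript.

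For many of the named members the TL difference depended on WT replicate 3. It was -1.12 ± 1.05 (SE) for nad4, -0.88 ± 1.08 for cox1, -0.60 ± 0.87 for orf111d, -0.97 ± 1.08 for orf262 and -1.32 ± 1.16 for orf111b. Without WT replicate 3 the same differences were -0.05, 0.27, 0.26, 0.17 and -0.33. Other differences grew without that sample, from 0.37 ± 0.99 to 1.40 for nad3, from 0.60 ± 1.12 to 1.54 for ccb382 and, with a change of sign, from -0.19 ± 1.07 to 0.89 for orf149. For ORF31 the difference went from -0.49 ± 0.90 to 0.42. For ccb452 the difference of -1.12 ± 0.55 had the same sign in all 3 same-numbered pairs (-1.12, -0.55 and -1.69) and was -0.61 without WT replicate 3. For orf240a pairs 1 and 2 differed by -0.24 and -0.01 and pair 3 by -3.08. The adjusted p was 0.823 or higher for each of these members.

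Over the 75 members the TL difference was below 0 for 49, above 0 for 17 and 0 for 9, with a median of -0.10. Without WT replicate 3 it was below 0 for 30, above 0 for 29 and 0 for 16, with a median of 0.00. The excess of negative over positive TL differences was thus 32 members with WT replicate 3 and 1 member without it. With all samples, the PL difference was below 0 for 48 members and above 0 for 5, and the NP difference below 0 for 36 and above 0 for 24. These PL and NP counts include WT replicate 3, whose PL array stood apart, and were not repeated without it. No counts over all probe sets are set beside these signs, so they are not read as a shift in eif3k.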

How the data were processed

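The values deposited by the authors are log2 signals, 1 for each probe set and array, after background correction and normalization. The submitters' processing notes name GCRMA and the study's methods RMA, and neither the version nor the build is given in the sources used here. The series' value table equalled these signals (0 differing values), and the authors' TL columns equalled log2 PL minus log2 NP within 0.01. Of 22810 probe sets, 64 controls were left out. No 2 arrays were identical. Fits used limma 3.58.1 in R 4.3.3, tested on simulated data, over all 22746 probe sets, two-sided, with Benjamini-Hochberg adjustment. TL was fitted by genotype over 6 samples, and its group means tested against 0 with a shared spread. Values at the floor enter as deposited.

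Members and lists were chosen with earlier results of these data known. Named were all gene-named members, the 10 brightest orf names, those called, and the 4 highest and 4 lowest by mean TL off the floor. The study describes its WT samples as biological replicates, while the labels give the eif3k samples a number only. A supplementary figure of the study shows fewer experimental replicates of eif3k than the 3 used here. The p-values reflect only how these samples vary. Arrays give no read depth, and 3 replicates limit the precision. Deviations of same-numbered WT and eif3k samples from the mean of their group were correlated (r = 0.134, 0.232 and 0.232 for TL, 0.146 to 0.268 for PL, 0.161 to 0.237 for NP over probe sets). Differently numbered samples reached at most 0.103 for TL and -0.00754 for NP, but 0.227 for PL, above the 0.146 of same-numbered replicate 1. The numbers were taken to pair them, from the data and not from a statement in the labels. Alternatives were quantile normalization, a filter on dim probe sets, other moderation, the replicate or the array batch as a block, unpaired arrays, and each sample left out. No sequences or coordinates are printed, as no table used here holds them in the build of the array.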

Additional observations from a re-analysis of the deposited data

How the results depend on the processing

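The 0 calls between genotypes in TL, PL and NP stayed at 0 in every alternative run, and with the replicate block, which pairs same-numbered samples, the members called were 0, 0 and 0. TL of the called members against 0 kept its sign. The uncalled TL differences between genotypes of cox1, orf111d, orf262, orf149 and ORF31 were below 0 with WT replicate 3 and above 0 without it. The calls of TL against 0 depended on single samples, over the whole array as well as among the members. With samples left out, 0% to 6.81% of all probe sets were called in WT and 0% to 8.25% in eif3k, in either direction. Among the members, the 1 call in WT became 0 to 8, the 8 without WT replicate 3 or without replicate 3 of both genotypes. In eif3k the 4 calls became 0 to 9, the 9 without WT replicate 3. Over the 12 arrays with no replicate block they were 3 in WT (5.33% of all probe sets in either direction) and 8 in eif3k (6.02%), and quantile normalization gave 2 in WT (5.52%). Without probe sets of a mean signal under 4, which keeps 6 members, 4 were called in WT, where the filter also raised the share over all probe sets to 20.7%. Apart from ORF31 and nad4, the members pass that filter through their NP signals, so this count is no support. With that filter the median TL of nad and cox was -0.97 in WT and -1.98 in eif3k (2 members), and of orf names -2.82 and -3.01 (3 members). These medians come from the same selection and are no support either. ORF31 is 1 of the 3 orf names kept, and their median was not computed without it. Without members at the floor the orf median was 0.05 in WT and -0.04 in eif3k. Within 0.5 of the floor were 31 members, against 19 within 0.1. NP above PL on all arrays was found for 9 to 17 members with samples left out and for 7 after quantile normalization, alternatives chosen after seeing the data. It held for 16 without WT replicate 3 (9.60% of all probe sets) and 17 without replicate 3 of both genotypes (14.2%), against 6.11% of all probe sets on the 12 arrays. For the other alternatives this share was not computed. Fewer arrays make such separation easier for any probe set, so the range is no result about the members. The floor limits what can be seen of most members, and a PL signal at the floor gives a bound.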
